A study of Homo sapiens with 2 samples.

Results

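The markers described here are 10 genes used to recognise intestinal stem and progenitor cells or colon cancer stem cells, other than the receptors of the Wnt pathway: PROM1, CD44, ALCAM, EPCAM, LRIG1, ASCL2, BMI1, MSI1, OLFM4 and SMOC2. They were taken by symbol, and not by their values, from the 51640 symbols of the deposited tables, and all 10 had a single entry with a valid estimate in each library. The tables come from RNA sequencing of HCT116, an epithelial cell line grown from a human colon carcinoma. There are 2 biological replicates, named PF and PJ, with the same labels: untreated cells grown in DMEM with 10% fetal bovine serum and antibiotics to 80% confluence. What the letters stand for is not given in the labels, and nothing in them sets the cultures apart. The values are FPKM, fragments per kilobase of transcript relative to all mapped fragments of the library, with lower and upper 95% bounds for each estimate, given below in parentheses. Fragment totals are unknown. The normal colon libraries that the study also used were not analysed here.

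The intestinal lining is renewed by stem cells at the base of the crypts, which divide and give rise to progenitors that mature as they move up the crypt. Wnt signals keep the stem cells in place, and ASCL2 is a transcription factor of that programme, while OLFM4 and SMOC2 encode secreted proteins made by the same cells. PROM1 (CD133), CD44, ALCAM (CD166) and EPCAM encode cell surface proteins by which tumour-initiating colon cancer cells have been sorted. LRIG1 encodes a membrane protein that restrains ERBB receptors, BMI1 a subunit of Polycomb repressive complex 1, and MSI1 (Musashi-1) an RNA-binding protein that represses translation.

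HCT116 cells carried transcripts of the surface markers and of BMI1 and MSI1 but almost none of ASCL2, OLFM4 and SMOC2. Of the 10 markers, 5 reached 1 FPKM in both libraries (EPCAM, CD44, BMI1, ALCAM and MSI1), against 27.9% of all 51609 symbols with a value in each library and 57.3% of protein-coding symbols. PROM1 and LRIG1 passed 1 FPKM in PF only. The 5 genes of membrane proteins were lower in PJ, whereas BMI1 and MSI1 were higher there. With 1 library on each side, such differences are the spread between replicates, and no p-value was computed.

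The promoter sequences of 4 markers are shown because their genes stood furthest apart in these cells: PROM1 and CD44 had the greatest deficit in PJ, BMI1 the greatest excess, and OLFM4 was near 0 in both libraries. Each is a RefSeq window (GRCh38.p14) from 250 bases before to 50 bases after an annotated start, written 5′ to 3′ on the strand of the gene. For PROM1 and BMI1, which have several starts, it is the most upstream one listed, and which start the cells used was not measured. Capitals mark matches on either strand to CTTTGA or CTTTGT, core letters of sites for the TCF/LEF factors of the Wnt pathway, to CACCTG, a form of the E-box, and to TATAAA.
PROM1 (chr4:16083974-16084273, minus strand): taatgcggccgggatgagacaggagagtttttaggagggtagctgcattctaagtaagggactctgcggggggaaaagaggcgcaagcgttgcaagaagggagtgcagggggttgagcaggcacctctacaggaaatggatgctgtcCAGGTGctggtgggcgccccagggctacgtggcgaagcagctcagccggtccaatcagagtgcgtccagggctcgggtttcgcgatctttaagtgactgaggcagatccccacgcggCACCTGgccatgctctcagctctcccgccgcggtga
CD44 (chr11:35138921-35139220, plus strand): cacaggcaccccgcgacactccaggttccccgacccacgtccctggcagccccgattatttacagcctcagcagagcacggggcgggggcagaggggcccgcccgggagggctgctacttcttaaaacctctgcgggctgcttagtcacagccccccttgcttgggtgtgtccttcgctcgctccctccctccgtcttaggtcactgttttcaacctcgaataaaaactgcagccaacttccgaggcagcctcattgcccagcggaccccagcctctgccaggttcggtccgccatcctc
BMI1 (chr10:22320849-22321148, plus strand): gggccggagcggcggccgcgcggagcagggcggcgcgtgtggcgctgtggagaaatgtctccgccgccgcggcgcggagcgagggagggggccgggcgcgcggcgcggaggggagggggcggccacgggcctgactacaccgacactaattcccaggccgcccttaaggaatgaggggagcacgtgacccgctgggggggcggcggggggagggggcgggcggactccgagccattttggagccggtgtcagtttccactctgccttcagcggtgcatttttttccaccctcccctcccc
OLFM4 (chr13:53028563-53028862, plus strand): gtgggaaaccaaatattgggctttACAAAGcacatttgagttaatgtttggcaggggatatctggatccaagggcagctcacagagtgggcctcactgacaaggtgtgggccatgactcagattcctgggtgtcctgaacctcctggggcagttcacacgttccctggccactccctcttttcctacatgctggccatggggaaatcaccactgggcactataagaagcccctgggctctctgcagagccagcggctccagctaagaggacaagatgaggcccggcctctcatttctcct

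The PROM1 window holds the E-box letters at 2 places, the first starting 103 bases before the annotated start and the second at base 15 after it. The OLFM4 window has CTTTGT on the opposite strand, 226 bases before the start. The windows of CD44 and BMI1 hold none of the 4 motifs. CpG dinucleotides numbered 18 in PROM1, 18 in CD44, 36 in BMI1 and 3 in OLFM4, against a median of 14 over 35116 windows of the same length. Windows not shown held 28 for SMOC2, which was also near 0 in both libraries, 26 for ALCAM and 10 to 35 for LRIG1. The other windows of PROM1 held 6 to 32 and that of BMI1 65. Whether CpG number goes with level was not tested. Windows were found for 7 of the 10 markers, 14 windows in all, of which several belong to the same gene and some overlap. CACCTG was in 5 of the 14 (3 of PROM1, the window of ALCAM and 1 of LRIG1), or 35.7%, against 20.6% of all windows. CTTTGA was in 1 (12.9% of all windows), CTTTGT in 1 (16.1%) and TATAAA in 0 (11.5%). These matches are descriptions of letters and show no binding.

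EPCAM, which encodes an epithelial adhesion molecule, was the highest marker in both libraries. The gene (ENSG00000119888.6; hg19, chromosome 2, 47572297 to 47614740) stood at 213 FPKM (210.1–221) in library PF against 143 (139–149) in PJ, above 98.3% and 96.6% of protein-coding symbols. PJ was lower by a factor of 1.495, and the bounds were apart. MIR559 and a 7SK gene lie within its span and were listed at 0 in both libraries. On the scale used for all differences below, the log2 ratio of FPKM plus 1, PJ over PF, EPCAM was at -0.58.

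CD44 encodes the receptor for hyaluronan, a sugar polymer of the matrix between cells. The gene (ENSG00000026508.11; chromosome 11, 35160417 to 35253949) was at 155 FPKM (150.02–162) in library PF against 23.1 (21.6–25.5) in PJ. The estimate in PF was 6.70 times that in PJ, with a log2 ratio of -2.69, and even the lower bound in PF was 5.89 times the upper bound in PJ. CD44 thus stood above 97.4% of protein-coding symbols in PF and above 77.1% in PJ. Only 0.852% of the 15736 symbols averaging at least 1 FPKM had a lower log2 ratio. The tables give 1 value per gene, so the standard and variant isoforms of CD44 were not separated. RP1-68D18.4, an antisense gene, and RP1-68D18.2 lie inside CD44 and were at or under 0.217 FPKM in both libraries.

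PROM1, which encodes a membrane protein of cell surface protrusions, showed the widest gap of all the markers. The gene (ENSG00000007062.7; chromosome 4, 15964699 to 16086001) was at 8.75 FPKM (7.54–10.4) in library PF against 0.00549 (0.000376–0.548) in PJ. Because the PJ estimate is so near 0, the ratio of the estimates has little meaning, and the lower bound in PF was 13.7 times the upper bound in PJ. The log2 ratio was -3.28, a value set by the PF level and the added 1. PROM1 averages at least 1 FPKM only through PF, where it is high, so no rank among symbols with that mean is given. PROM1 was above 63.5% of protein-coding symbols in PF and 16.7% in PJ. Its span overlaps FGFBP2, at 0.00307 (PF) and 0.119 FPKM (PJ), and a U6 gene listed at 0.

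ALCAM, an adhesion molecule of the immunoglobulin family, was the third surface marker in both libraries. The gene (ENSG00000170017.8; chromosome 3, 105085753 to 105295744) was at 21.7 FPKM (20.7–22.8) in library PF against 10.9 (10.2–11.6) in PJ, with bounds apart. Its FPKM differed by a factor of 1.997, but the log2 ratio of -0.94, to which the added 1 contributes, fell short of 2-fold.

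LRIG1 was low throughout. The gene (ENSG00000144749.9; chromosome 3, 66429221 to 66551687) was at 2.40 FPKM (1.98–2.83) in library PF against 0.458 (0.187–0.812) in PJ, a log2 ratio of -1.22. Its end overlaps SLC25A26, a mitochondrial carrier gene on the opposite strand at 30.0 (PF) and 19.2 FPKM (PJ), both above their own upper bounds of 23.0 and 16.2. Whether the counting used strand is not given in the sources used here, so fragments from the overlap cannot be told apart.

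BMI1 was higher in PJ. The gene (ENSG00000168283.8; chromosome 10, 22605381 to 22620413) stood at 39.1 FPKM (35.7–42.6) in library PF against 66.6 (62.1–71.4) in PJ, a factor of 1.70 and a log2 ratio of 0.75. It overlaps COMMD3, its neighbour on the same strand, which was at 30.3 FPKM (26.9–33.8) in library PF against 73.8 (68.8–79.3) in PJ. Fragments from transcripts that run through both genes could count for either, so the value of BMI1 is uncertain to that extent.

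MSI1 differed least among the expressed markers. The gene (ENSG00000135097.2; chromosome 12, 120779133 to 120806983) was at 7.09 FPKM (6.48–7.74) in library PF against 9.32 (8.49–10.2) in PJ, with a log2 ratio of 0.35. These bounds were apart, but the whole distribution was also higher in PJ, with a median ratio of 1.19 over symbols reaching 1 FPKM in both. With that ratio divided out the bounds of MSI1 overlapped and its log2 ratio was 0.13.

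The crypt base genes ASCL2, OLFM4 and SMOC2 were near 0 in both libraries. ASCL2 (ENSG00000183734.4; chromosome 11, 2289725 to 2292182) was listed at 0 in PF and PJ. Its upper bounds were also 0, which does not tell what level could have been detected. OLFM4 (ENSG00000102837.5; chromosome 13, 53602830 to 53626196) was at 0.00027 (PF) and 0.000148 FPKM (PJ), with upper bounds of 0.0294 and 0.0315. SMOC2 (ENSG00000112562.14; chromosome 6, 168841831 to 169073984) was at 0.00763 (PF) and 0.000549 FPKM (PJ), with upper bounds of 0.232 and 0.233. The overlapping gene AL391319.1 was listed at 0 in PF and at 0.0738 FPKM in PJ. No fold is given for the 3 markers, whose bounds overlapped.

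**Figure D1:**
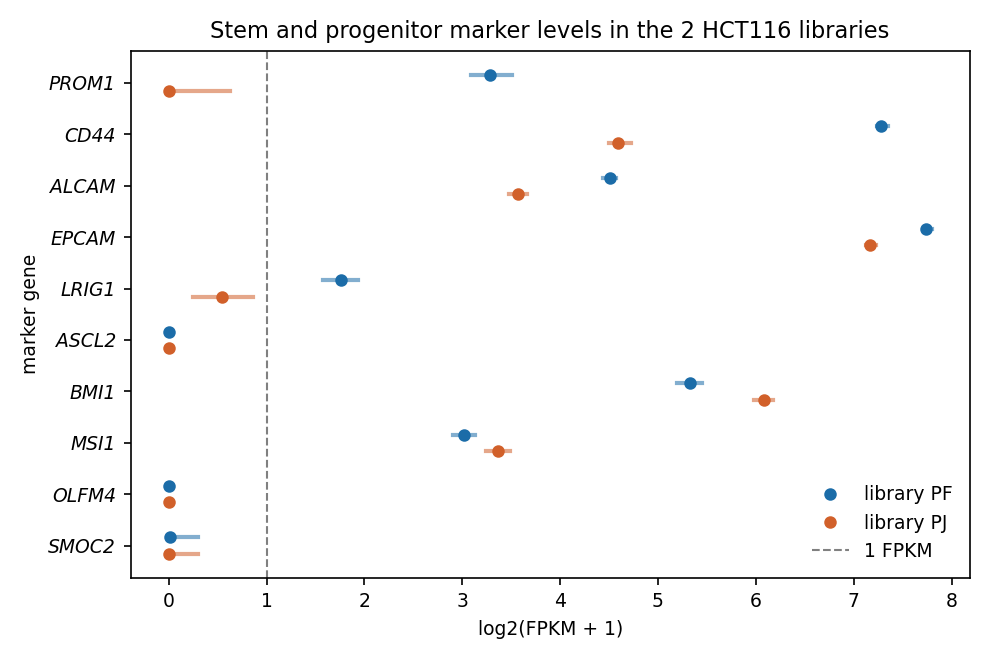
Levels of the 10 markers in libraries PF (blue) and PJ (orange), as log2(FPKM + 1); points are the deposited estimates, bars their 95% bounds, and the dashed line is 1 FPKM. The bars of PROM1, CD44, ALCAM, EPCAM and LRIG1 lie apart with PJ lower and those of BMI1 and MSI1 apart with PJ higher, while ASCL2, OLFM4 and SMOC2 sit near 0.

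The order of the markers differed between the libraries. In PF it ran from EPCAM over CD44, BMI1, ALCAM, PROM1 and MSI1 to LRIG1, and only PROM1 and MSI1 had overlapping bounds among these neighbours. In PJ it ran from EPCAM over BMI1, CD44, ALCAM and MSI1 to LRIG1 and PROM1, with overlapping bounds for ALCAM and MSI1 and for LRIG1 and PROM1. BMI1 was at 0.253 times the FPKM of CD44 in PF and at 2.88 times in PJ. EPCAM exceeded CD44 by a factor of 1.38 in PF and 6.17 in PJ.

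Among the 5 markers with 1 FPKM in both libraries, 1 (CD44) was at least 2-fold lower in PJ, where 3.37% of the 14404 symbols at that level were, and none was at least 2-fold higher, where 8.8% were. Their median log2 ratio was -0.58, against 0.22 for those symbols; this filter was chosen after the data were seen. A filter on the mean also admits PROM1 and LRIG1, which pass it only through PF, where they are high, so that what they add to a count or a median is set by the filter. On that filter 7 markers averaged at least 1 FPKM, and 3 of them (PROM1, CD44 and LRIG1) were at least 2-fold lower in PJ, where 5.22% of the 15736 symbols with that mean were. None of the 7 was at least 2-fold higher, where 10.4% of symbols were. At a mean of 5 FPKM or more only CD44 was left as 2-fold lower. By direction alone, 5 of the 7 were lower in PJ, where 34.2% of symbols were, and 2 were higher, where 65.8% were; BMI1 and MSI1 were still the higher ones with the median ratio divided out, where 50.5% of symbols were. Bounds were apart with PJ lower for 5 of the 7, against 18.3% of symbols with a single entry, and with PJ higher for BMI1 and MSI1, against 44.5%. The median log2 ratio of the 7 was -0.94 and that of the symbols 0.22; it was -0.58 at a mean of 5 FPKM or more and -0.29 with no filter, which adds the 3 markers near 0. Dividing out the median ratio left 4 of the 7 at least 2-fold lower, with ALCAM added, against 7.14% of symbols, and none higher, against 6.29%. Of all symbols past 2-fold, 66.7% were the higher ones in PJ before this scaling and 46.8% after it. The bounds describe the estimate within 1 library and leave out variation between cultures. In bulk RNA, fewer cells with a transcript and less of it in each cell cannot be told apart.

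The labelled cell type was checked against marker lists; here and below, the highest and lowest genes of a list are those by the mean of both libraries. Of 10 epithelial genes 9 reached 1 FPKM in both libraries, and the list summed to 1479 (PF) and 819 FPKM (PJ). KRT8, a keratin gene and the highest of the list, was at 760 and 280 FPKM, and VIL1, the gene of the brush border protein villin, was lowest at 0.159 and 0.314. Of 12 genes of differentiated colon cells none was at 1 FPKM in both, and the list summed to 1.40 and 0.907 FPKM; KRT20 was the highest at 1.10 and 0.480, and FABP1, GUCA2A and TFF3 were listed at 0. The immune list had 0 of 7 genes and the endothelial list 0 of 6 at that level in both libraries, with sums of 1.30 and 1.40 FPKM and of 0.302 and 0.217. The highest and lowest of the immune list were the macrophage receptor gene CSF1R (0.519 and 0.738 FPKM) and the B cell gene MS4A1 (0.000296 and 0), and those of the endothelial list KDR (0.137 and 0.0507) and EMCN (0.000850 and 0.000539).

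The libraries also differed in several epithelial genes and in 1 mesenchymal gene. In the epithelial list 4 of the 9 genes averaging at least 1 FPKM were at least 2-fold lower in PJ and none at least 2-fold higher. The median log2 ratio was -0.55. All 9 reached 1 FPKM in both libraries, and of the 14404 symbols that did so 3.37% were at least 2-fold lower and 8.8% higher. The adhesion gene CDH1 was at 21.9 (PF) and 1.80 FPKM (PJ), and ELF3, an epithelial transcription factor gene, at 76.3 and 1.02. By direction, 7 of the 9 were lower in PJ and 2 higher. The higher ones were KRT19 at 306 and 325 FPKM, with bounds apart, and CLDN3 at 4.58 and 5.47, with overlapping bounds. With the median ratio divided out, their log2 ratios were -0.16 and 0.01. In the mesenchymal list only VIM (vimentin) passed 1 FPKM in both, at 4.91 and 126; the other 7 genes, among them COL1A2 (0.0244 and 0.0248) and the lowest, LUM (0.000511 and 0), were under 1 FPKM in both, with overlapping bounds. CDH1, ELF3, KRT19, CLDN3 and COL1A2 were picked with their values in view. The part of these differences in the marker values was not tested.

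**Figure D2:**
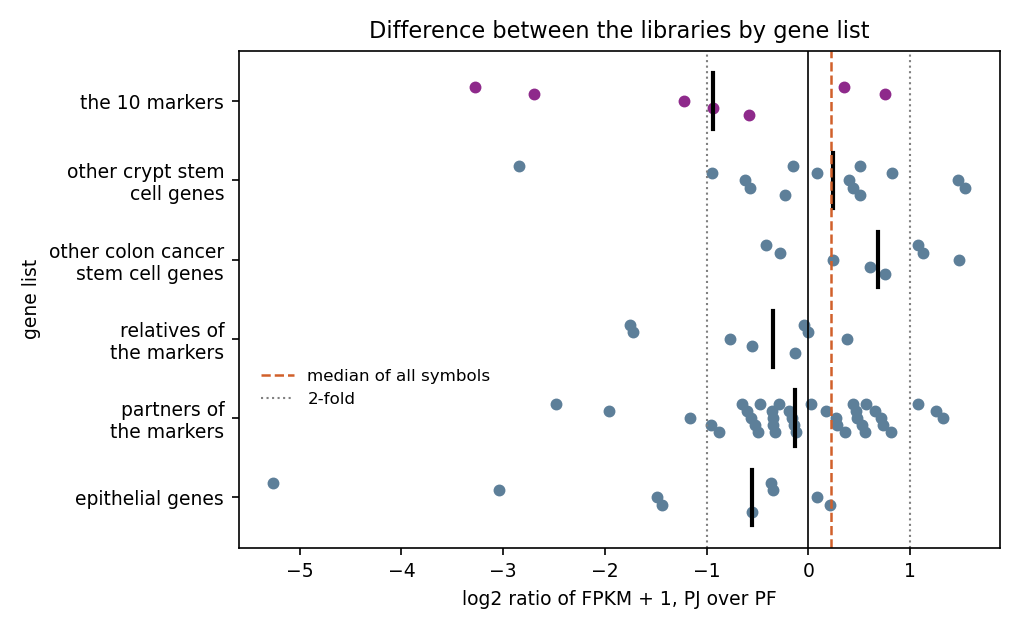
Log2 ratio of FPKM plus 1, PJ over PF, for genes averaging at least 1 FPKM, by list; each point is a gene, black bars are list medians, the orange dashed line is the median of all symbols (0.22) and dotted lines are 2-fold. The 7 markers shown have a median of -0.94 with 3 genes beyond 2-fold on the lower side. The other crypt stem cell genes centre at 0.25 and the other colon cancer stem cell genes at 0.68. Genes that reach 1 FPKM in 1 library only, such as PROM1, LRIG1, DCLK1 and ABCG2, enter through the library where they are high.

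Other genes of the crypt stem cell programme had a median log2 ratio near that of all symbols. Of 20 such genes, 13 reached 1 FPKM in both libraries, where 57.3% of protein-coding symbols did. Among the 14 averaging at least 1 FPKM, 1 was at least 2-fold lower in PJ (5.22% of symbols) and 2 at least 2-fold higher (10.4%). Their median log2 ratio was 0.25. By mean, the 4 highest were CDCA7, a gene of a chromatin protein, at 38.5 (PF) and 41.0 FPKM (PJ), PHLDA1 at 33.7 and 28.6, the protein C receptor gene PROCR at 32.2 and 21.4, and the transcription factor gene SOX4 at 11.9 and 16.5. AXIN2, a negative regulator gene of Wnt signalling, exceeded SOX4 in PF and was at 16.9 (PF) and 8.29 FPKM (PJ), with bounds apart. RNF43, whose product removes Wnt receptors from the cell surface, was the gene lower in PJ, at 11.5 and 0.745 FPKM (log2 ratio -2.85). ZNRF3, which encodes a related ubiquitin ligase, was at 3.68 and 7.26. The 2 genes higher in PJ were the progenitor transcription factor gene SOX9, at 1.37 and 5.56 FPKM, and the telomerase gene TERT, at 1.77 and 7.06. LGR5, the defining receptor gene of crypt base columnar cells, was at 0.0269 and 0.0373. The direction of the list is weak on another scaling: with the median ratio divided out its median log2 ratio was 0.01. By at least 2-fold, 2 genes were then lower (7.14% of symbols) and 2 higher (6.29%). AXIN2, ZNRF3, SOX9, TERT and LGR5 were named with their values known. Of the genes called 2-fold apart in this list and those that follow, RNF43, DCLK1, PROM2 and HAS3 reached 1 FPKM in 1 library only, and so passed the filter through the library where they were high.

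The list of other colon cancer stem cell genes had 14 measured members, 6 of them reaching 1 FPKM in both libraries, where 57.3% of protein-coding symbols did. Among the 8 averaging at least 1 FPKM, none was at least 2-fold lower in PJ (5.22% of symbols) and 3 were at least 2-fold higher (10.4%). Once the median ratio was divided out, 1 was higher (6.29% of symbols) and none lower (7.14%). The median log2 ratio was 0.68, or 0.49 after that scaling. The integrin gene ITGB1 was the highest at 108 (PF) and 80.9 FPKM (PJ), followed by the aldehyde dehydrogenase gene ALDH1B1 at 24.1 and 41.5 and the integrin gene ITGA6 at 18.9 and 22.6. The 3 higher genes were KLF4, a transcription factor gene, at 4.42 and 10.8 FPKM, the adhesion gene L1CAM at 1.82 and 4.93, and the kinase gene DCLK1 at 0.0852 and 2.03; DCLK1, L1CAM and the 3 genes that follow were named with their values known. In the same list the pluripotency genes NANOG and SOX2 were listed at 0 in both libraries, and POU5F1 was at 0.0553 and 0.0144 FPKM. CD24 was not analysed here.

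**Figure D3:**
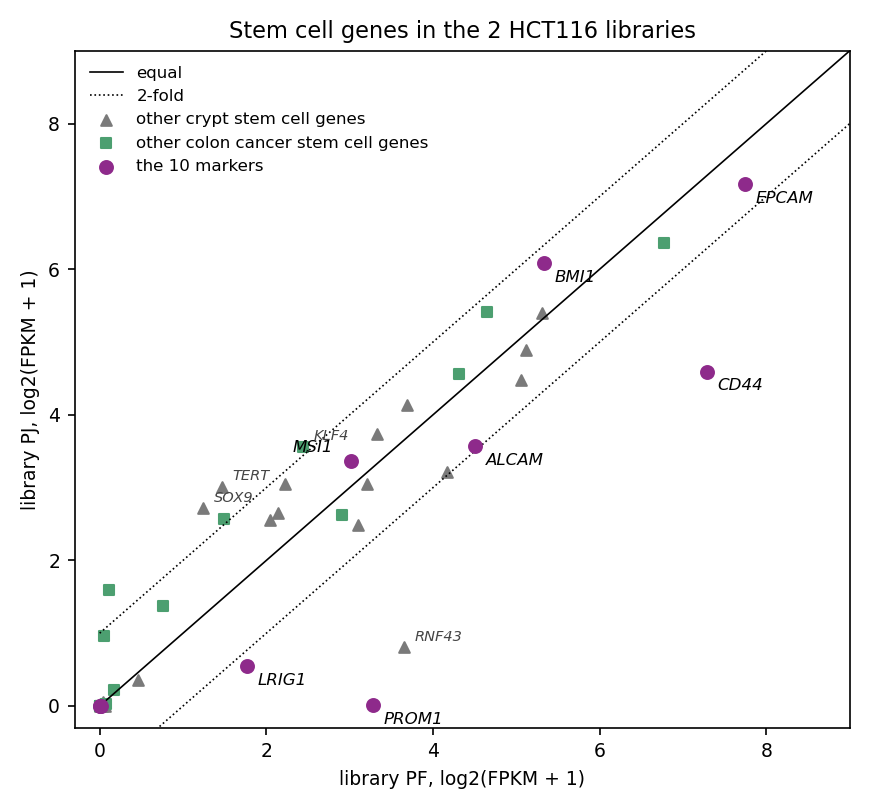
FPKM of stem cell genes in library PF (horizontal) and PJ (vertical), both as log2(FPKM + 1), with the line of equality and dotted lines at 2-fold on that scale. PROM1, CD44 and LRIG1 lie under the lower dotted line with RNF43, and SOX9, TERT and KLF4 lie above the upper one.

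Genes related in sequence to the markers had their own levels. Among the relatives, partners and cell type genes named here, the estimates of PCGF2, TCF3 and TCF4 in both libraries, of KRT8, BCAM and ESRP1 in PF and of EZR in PJ lay outside their own deposited bounds and are uncertain. MSI2, the relative of MSI1, was the higher of the pair in both libraries, at 98.1 (PF) and 66.4 FPKM (PJ), or 13.8 and 7.12 times the level of MSI1. PCGF2, which can take the place of BMI1 in Polycomb complexes, was at 22.5 and 29.6 FPKM. PROM2 was at 2.36 (PF) and 0.0168 FPKM (PJ), low in the same library as PROM1. LRIG2 was at 4.45 (PF) and 4.29 FPKM (PJ) and LRIG3 at 4.54 in each, both above LRIG1 in both libraries. Of the adhesion genes related to ALCAM, BCAM was at 44.2 and 12.4 FPKM and MCAM at 14.2 and 12.9. For OLFM4, the relative OLFM2 was at 11.7 (PF) and 6.44 FPKM (PJ) and OLFM1 at 1.34 and 0.228. Another 4 relatives (SMOC1, OLFM3, ASCL3 and LYVE1) were under 1 FPKM in both libraries. Of the 8 relatives averaging at least 1 FPKM, 2 were at least 2-fold lower in PJ, PROM2 and BCAM, where 5.22% of symbols with that mean were. None was at least 2-fold higher, where 10.4% were. PROM2 passed that filter only through PF.

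Among 13 genes whose products bind, supply, shed or splice CD44, 10 reached 1 FPKM in both libraries. EZR, for ezrin, which ties CD44 to actin, was the highest at 224 (PF) and 334 FPKM (PJ). The hyaluronan synthase gene HAS2 was lowest by mean, at 0.00551 and 0.000546 FPKM. Another synthase gene, HAS3, was at 7.79 (PF) and 0.572 FPKM (PJ) (log2 ratio -2.48), the only one of the 13 at least 2-fold lower; it was chosen after its values were seen. ESRP2, a splicing regulator gene of epithelial cells that acts on CD44 transcripts, was the only one at least 2-fold higher, at 9.07 and 23.1 FPKM. Its relative ESRP1 was at 27.0 and 16.8. Of all symbols averaging at least 1 FPKM, 5.22% were at least 2-fold lower in PJ and 10.4% higher. The sheddase genes ADAM10 and ADAM17 differed little, the first at 27.0 (PF) and 23.5 FPKM (PJ) and the second at 10.3 and 10.5. ESRP1 and ADAM10 were named with their values known.

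All 9 genes tied to EPCAM reached 1 FPKM in both libraries. The protease inhibitor gene SPINT2 was highest at 363 (PF) and 197 FPKM (PJ), and PSEN2, for a catalytic subunit of gamma-secretase, lowest by mean at 7.65 and 11.8; ADAM17 was below it in PJ. ST14, which encodes the membrane protease matriptase, was the only one at least 2-fold lower in PJ, at 59.3 and 14.5 FPKM (log2 ratio -1.96). CLDN7, for a claudin that associates with EPCAM, was at 47.9 and 37.4 and was likewise named with its values known. With the median ratio divided out 2 of the 9 were at least 2-fold lower, SPINT2 being added. Of all symbols averaging at least 1 FPKM, 5.22% were at least 2-fold lower before this scaling and 7.14% after it. The partners of ALCAM were its T cell ligand gene CD6, at 0.215 and 0.0633 FPKM, with L1CAM and ADAM17 given above.

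The Polycomb partners of BMI1 were present in full, 10 of 10. PHC2 was highest at 70.7 (PF) and 54.9 FPKM (PJ) and PHC1 lowest by mean at 3.26 and 1.89. RNF2, the gene of the catalytic subunit that pairs with BMI1, was at 11.5 and 21.0 FPKM and RING1, its alternative, at 27.5 and 33.5. CBX7 was the only partner at least 2-fold higher in PJ, at 2.12 and 6.81 FPKM, against 10.4% of symbols averaging at least 1 FPKM. None was at least 2-fold lower, against 5.22% of symbols. With the median ratio divided out 1 was (PHC3, 15.4 and 7.47), against 7.14%. RNF2, RING1, CBX7 and PHC3 were chosen after their values were seen. For MSI1, whose known target is NUMB, that gene was at 12.5 and 17.8 FPKM and NUMBL at 14.9 and 25.2.

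Of 5 receptor genes listed with LRIG1, 4 reached 1 FPKM in both libraries. All 4 estimates were lower in PJ, where 34.2% of the 15736 symbols were, but only those of MET and ERBB3 had bounds apart. MET, the hepatocyte growth factor receptor gene, was the highest by mean at 35.8 (PF) and 15.4 FPKM (PJ) (log2 ratio -1.17), with ERBB2 above it in PJ, and ERBB4 was lowest at 0.00160 and 0.000757. The bounds of EGFR, at 5.91 and 5.37 FPKM, and of ERBB2, at 20.5 and 18.3, overlapped; ERBB2, ERBB3 and EGFR were named with their values known. The E protein genes whose products pair with ASCL2 were led by TCF3 at 99.04 and 78.6 FPKM, with TCF4 lowest at 0.00270 and 0.114; each lay outside its own bounds, TCF3 above and TCF4 below.

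**Figure D4:**
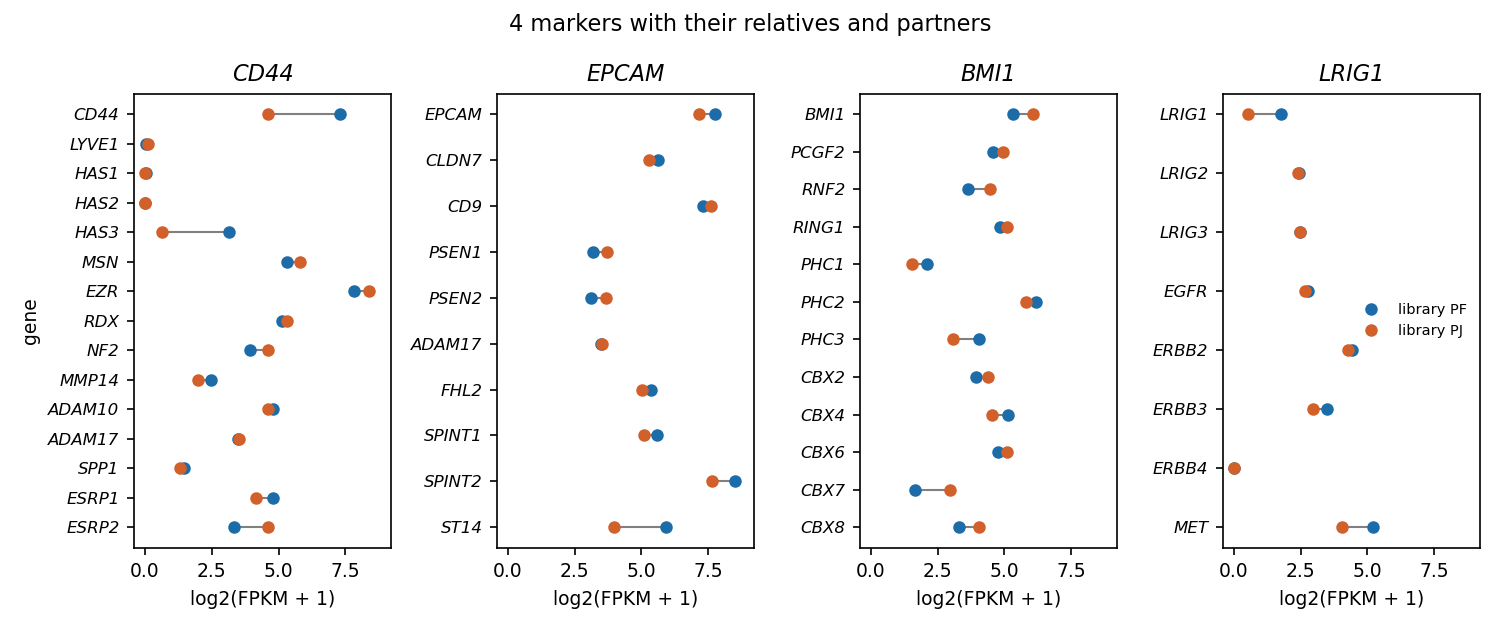
Levels of CD44, EPCAM, BMI1 and LRIG1 with their relatives and partners in libraries PF (blue) and PJ (orange), as log2(FPKM + 1), with a grey line joining the libraries. The gaps of CD44 and HAS3 are wide with PJ lower, as is that of ST14 beside EPCAM, while BMI1, RNF2 and CBX7 are higher in PJ.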

How the data were processed

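RNA from 2 HCT116 cultures was sequenced as paired-end TruSeq libraries from 1 µg of total RNA, per the labels' protocols. Reads were processed with TopHat, TopHat2 2.0.8b and Cufflinks on hg19, per the submitters' processing notes; the version of Cufflinks and the gene annotation are not given here. For each library the authors deposited FPKM with 95% bounds and a status for 56586 genes, per the file headers. Estimates with status FAIL (23 genes in PF, 20 in PJ, none of them a marker) were treated as missing, and FPKM of rows sharing a symbol were summed. FPKM is relative to the mapped fragments of a library, so very abundant RNAs depress the other values, and the FPKM total need not be the same in both libraries (3053270 in PF and 3492960 in PJ). Gene type and strand came from GENCODE release 29 by identifier, matched for 88.7% of genes. Spans are those of the tables, with starts counted from 1.

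The threshold for expression was 1 FPKM, to be reached in both libraries. Differences are log2 ratios of FPKM plus a pseudocount of 1, which understates the change of low genes, and 2-fold differences were counted at a mean of 1 FPKM or more; with 1 library per side there was no test. The counting was tested on simulated data. The markers and lists were chosen with earlier results of these data known. All markers are named, all relatives, the highest and lowest partner of each marker, the 4 highest genes of each stem cell list, 2-fold different genes at a mean of 5 FPKM or more, overlapping genes, and the highest and lowest gene of each cell type list, except some not reported here. Other genes are given as chosen after their values were seen. Alternatives were other thresholds, pseudocounts and scalings and each library alone. Python 3.11.15, numpy 2.4.6, pandas 2.3.3 and matplotlib 3.10.9 were used.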

Additional observations from a re-analysis of the deposited data

How the results depend on the processing

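The count of markers at 1 FPKM or more in both libraries was 5 at thresholds of 0.5 and 5 FPKM and with each library scaled to 1e6 over all genes or over genes of 200 bp or more; with 1 library alone it ran from 5 (PJ) to 7 (PF). The count at least 2-fold lower in PJ was 3 or 4 except at a mean of 5 FPKM or more, or with 1 FPKM in both libraries, where PROM1 and LRIG1 no longer entered and 1 marker, CD44, was left; the count at least 2-fold higher was 0 under every alternative run. The median log2 ratio was -0.94 and moved to -0.29 with no filter on low values, which adds the 3 genes near 0, to -0.58 at a mean of 5 FPKM or more and with 1 FPKM in both libraries, and to -1.16 with the median ratio divided out. The number of markers with bounds apart and PJ higher was 1 with the median ratio divided out, and with PJ lower 3 at a mean of 5 FPKM or more; alternatives for the bounds, and the filter on both libraries, were chosen after the data were seen. Each of the 7 markers with a ratio kept its direction in all 21 values under alternatives, but these could not have reversed it. A pseudocount leaves the direction as it is. The scalings lowered PJ by factors of 1.19 and 1.02, less than the factors by which BMI1 (1.70) and MSI1 (1.31) were higher there. A pseudocount of 0.1 gave log2 ratios of -6.39 for PROM1 and -2.16 for LRIG1. The depth is unknown, so what it can detect near 0 is known only from the deposited upper bounds. For ASCL2, whose upper bounds are 0, it is not known.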

Other observations

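The genes next to the markers that were lower in PJ were mostly higher there, as were most symbols. The nearest protein-coding genes averaging at least 1 FPKM on either side of PROM1, CD44, ALCAM, EPCAM and LRIG1, within 500000 bp on hg19, were 9 in number (this rule was set once the values were known). Of these, 7 were higher in PJ, where 65.8% of the 15736 symbols with that mean were; with the median ratio divided out these were 7 again, against 50.5% of symbols. At least 2-fold, 3 were higher (10.4% of symbols) and none was lower (5.22%), and the median log2 ratio was 0.72. Among the higher ones, KBTBD8 (0.640 in PF and 4.71 FPKM in PJ) passed the filter only through PJ. What it adds to the count and the median is set by the filter. FGFBP1, 24336 bp from PROM1 and the gene of a carrier protein for fibroblast growth factors, stood at 4.32 (PF) and 11.8 FPKM (PJ), and TAPT1 on the other side at 6.55 and 6.39. Beside CD44, PDHX, a gene of the pyruvate dehydrogenase complex, was at 11.4 and 19.5 FPKM and FJX1 at 4.39 and 15.7. The lowest log2 ratio among them was that of MAGI1, a neighbour of LRIG1, at -0.45. SLC25A26, which overlaps LRIG1 and so was not counted, was lower in PJ, at 30.0 (PF) and 19.2 FPKM (PJ), both outside their own bounds.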
